A study of Mus musculus with 5 samples.

Results

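The Hippo pathway genes described here are the kinases Stk3, Stk4, Lats1 and Lats2, the coactivators Yap1 and Wwtr1, and the DNA-binding partners Tead1, Tead2, Tead3 and Tead4. Members were taken as every probe set whose only gene symbol in the platform annotation is one of these 10 names. That gave 22 probe sets for 9 genes, of 34958 probe sets and 18194 genes with a single symbol in all; Stk3 was not analysed here. Wwtr1 encodes the protein TAZ, which is unrelated to tafazzin, the gene listed as Taz in the same annotation. RNA came from GFP-positive cells that were dissociated from lungs with trypsin and sorted by flow cytometry; the donors were SPC-GFP mouse pups at postnatal day 2, the offspring of SPC-GFP mice mated with the outbred ICR strain. There were 5 biological replicates with 1 array each, in 1 group, so no treatment, genotype or age could be compared, and the labels do not say whether a replicate pooled several pups. GFP is tied to SPC, the usual abbreviation of surfactant protein C, so the sort was meant to take cells in which that transgene was active. Carry-over of other cells was not tested. All p-values rest on the spread among these 5 samples alone.

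The pathway is a kinase chain. STK4 (also called MST1) and STK3 (MST2) phosphorylate and activate LATS1 and LATS2, which phosphorylate YAP and TAZ; the phosphorylated coactivators are held in the cytoplasm by 14-3-3 proteins or degraded. Unphosphorylated YAP and TAZ enter the nucleus and act through TEAD factors, since neither binds DNA itself. In the mouse lung, YAP and TAZ are known for their part in the differentiation and upkeep of alveolar type 1 cells and in responses to stretch and injury. Much of this control acts on the proteins, which RNA arrays do not measure.

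TEAD factors bind the motif GGAATG, read as CATTCC on the opposite strand, and some promoters with these letters are shown here. The 250 bases before the annotated start were searched on both strands in RefSeq promoter sequences of build GRCm38.p6, using the first window listed for each gene. Of the 10 members, 7 had a sequence, and 3 of these 7 (42.9%) held a match; so did 6 of 14 genes (42.9%) of a YAP/TAZ target signature described further on, against 12.6% of all 27025 genes in the table. With so few genes the difference was not tested. Stk4, Lats1, Lats2 and Tead2 held no match. The median G+C content of the windows was 67.6% in the members, 65.0% in the targets and 52.0% in all genes. The match lay 141 bases before the start in Yap1 (chr9:8004597-8004846, minus strand), 136 bases in Wwtr1 (chr3:57575911-57576160, minus strand) and 182 bases in Tead3 (chr17:28350806-28351055, minus strand). Ankrd1, a target with 2 matches at 210 and 123 bases (chr19:36119845-36120094, minus strand), and Ccn1, a target with 1 match at 103 bases (chr3:145649986-145650235, minus strand), are printed for comparison. A match is a run of letters and does not show that a factor was bound. The windows run 5′ to 3′ in the direction of transcription, with matches in capitals.
Yap1: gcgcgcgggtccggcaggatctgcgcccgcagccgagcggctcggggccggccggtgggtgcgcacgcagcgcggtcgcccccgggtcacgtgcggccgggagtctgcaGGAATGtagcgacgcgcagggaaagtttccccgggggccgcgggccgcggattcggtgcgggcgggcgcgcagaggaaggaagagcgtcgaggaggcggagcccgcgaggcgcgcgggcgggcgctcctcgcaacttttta
Wwtr1: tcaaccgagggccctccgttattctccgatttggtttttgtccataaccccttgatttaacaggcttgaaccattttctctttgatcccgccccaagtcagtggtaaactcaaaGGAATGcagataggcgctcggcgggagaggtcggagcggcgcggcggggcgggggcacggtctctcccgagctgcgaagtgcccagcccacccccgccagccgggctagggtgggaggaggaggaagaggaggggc
Tead3: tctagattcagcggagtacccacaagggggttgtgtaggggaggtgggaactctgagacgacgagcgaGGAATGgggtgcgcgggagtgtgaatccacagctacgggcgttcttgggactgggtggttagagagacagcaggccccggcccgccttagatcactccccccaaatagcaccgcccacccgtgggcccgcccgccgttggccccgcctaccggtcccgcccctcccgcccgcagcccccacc
Ankrd1: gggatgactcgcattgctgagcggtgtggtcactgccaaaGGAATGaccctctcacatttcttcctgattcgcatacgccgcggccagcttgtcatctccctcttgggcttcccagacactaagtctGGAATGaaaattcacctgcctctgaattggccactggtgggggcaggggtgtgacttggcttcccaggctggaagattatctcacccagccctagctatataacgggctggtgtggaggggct
Ccn1: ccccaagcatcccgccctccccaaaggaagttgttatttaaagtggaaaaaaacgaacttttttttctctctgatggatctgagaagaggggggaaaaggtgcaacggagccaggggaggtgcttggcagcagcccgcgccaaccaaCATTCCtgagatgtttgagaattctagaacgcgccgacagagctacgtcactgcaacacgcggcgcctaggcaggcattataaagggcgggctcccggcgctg

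Values are deposited signals on a log2 scale, so a difference of 1 is a doubling. Medians per array ran from 7.12 to 7.19 and the highest values from 15.13 to 15.24, and the number of arrays limits the precision. Each array's background, the 95th percentile of the signals of 76 chemosensory receptor genes, lay at 5.47, 5.45, 5.48, 5.71 and 5.56 in replicates 1 to 5, and a probe set was called above it where limma's moderated test (one-sided, Benjamini-Hochberg) gave an adjusted p under 0.05. Signals of different probe sets also depend on the probes, so they are not ranked as levels of expression. Markers of the cells named in the labels were checked on the same arrays: 11 of 11 measured alveolar type 2 markers lay above background, with Sftpc at 14.67 ± 0.053 (SD, n = 5), and so did 12 of 12 markers of ciliated cells, the name used in the design text. All 12 alveolar type 1, 12 endothelial and 12 immune markers and 11 of 12 fibroblast and smooth muscle markers were also above it, the exception being Lum. The share over all genes tested was 74.8%, so these calls alone do not show which cell types were present. Means ran from 12.96 to 14.71 for the alveolar type 2 markers and from 6.66 to 9.75 for the ciliated markers. For the alveolar type 1 markers they ran from 11.22 to 14.68, and for the immune markers from 9.11 to 14.34. Those of the fibroblast and smooth muscle markers ran from 5.42 to 13.04, and those of the endothelial markers from 9.12 to 11.70. If the sorted cells were a mixture, fewer cells of a type and less RNA per cell cannot be told apart.

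All 9 measured Hippo genes gave a signal above background, by the probe set of highest mean of each. The share of genes above background was 74.8% over the 18118 genes tested, so most genes on these arrays gave the same call. Counted singly, 21 of the 22 probe sets were above background, against 71.4% of the 34874 tested, and limma's adjusted p of those 21 ran from 1.43e-19 to 0.00556. The median distance above background was 5.74 log2 units for the 9 genes and 3.41 for all genes tested. Taking the brightest probe set favours genes with more probe sets. Over single probe sets the medians were 3.52 for the 22 of the members and 2.40 for all those tested. These differences were not tested.

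**Figure D1:**
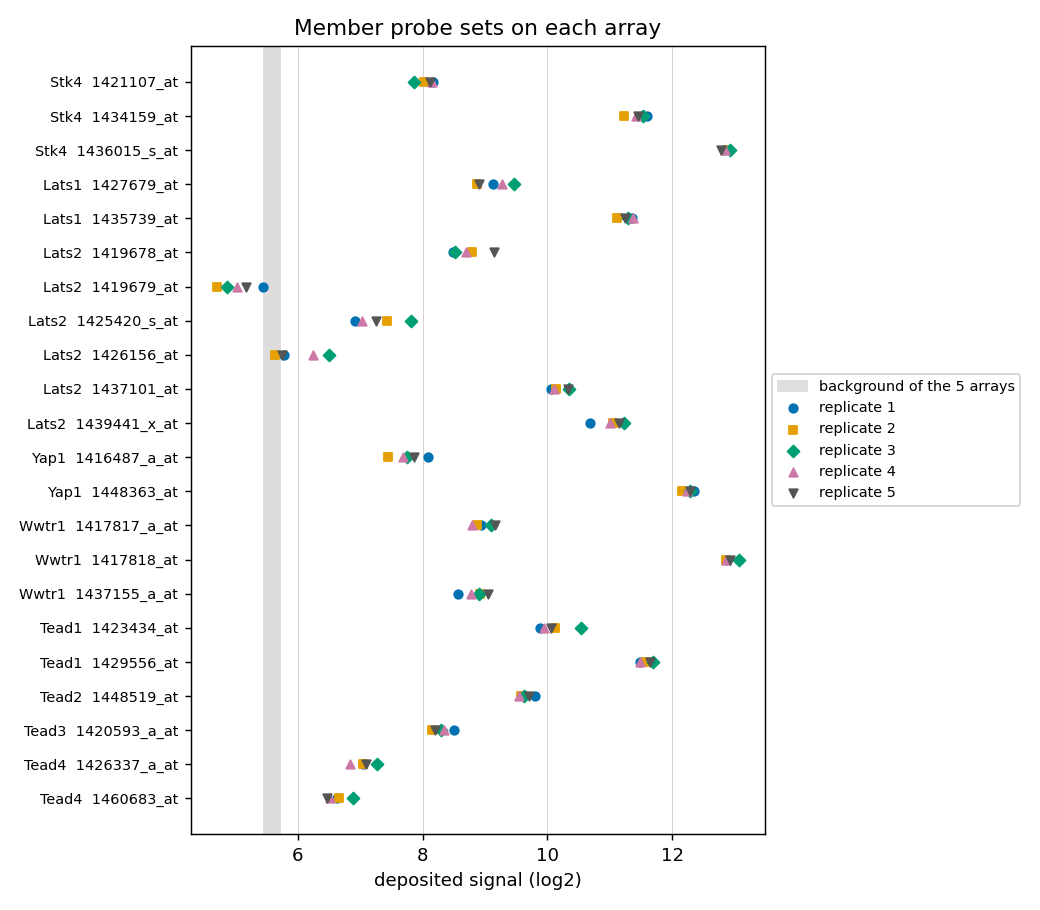
Deposited log2 signal (horizontal axis) of the 22 member probe sets (rows, named by gene and probe set) on the 5 arrays, 1 symbol per replicate; the grey band spans the 5 array backgrounds. The 5 symbols lie to the right of the band in all rows except those of the dimmest Lats2 probe set, at or left of it, and of the next dimmest, which touches it.

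Among the kinases, Stk4 was measured by 3 probe sets. Its brightest, a design that may also bind related transcripts, read 12.84, 12.88, 12.92, 12.84 and 12.78 in replicates 1 to 5, with a mean of 12.85 ± 0.051 (SD, n = 5) and a range of 1.10-fold. These 5 values were the closest together of any member. The other Stk4 probe sets read 11.60, 11.23, 11.53, 11.42 and 11.45, and 8.17, 8.02, 7.86, 8.15 and 8.12. The 3 did not share an order: replicate 3 was highest in the brightest and lowest in the dimmest, and replicate 1 was highest in both of the others.

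Lats1, one of the kinases that act on YAP and TAZ directly, read 11.36, 11.11, 11.29, 11.37 and 11.24 in replicates 1 to 5, a mean of 11.27 ± 0.10 (SD, n = 5). Its second probe set read 9.13, 8.87, 9.47, 9.27 and 8.91. Both were lowest in replicate 2, while the highest value was in replicate 4 for the first and in replicate 3 for the second.

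Lats2, the second LATS kinase and itself a known YAP target gene, had 6 probe sets, which disagreed on whether the gene gave a signal. The brightest, a design that may bind other transcripts, read 10.69, 11.05, 11.23, 11.01 and 11.15, a mean of 11.03 ± 0.21 (SD, n = 5) and a range of 1.46-fold. The second, of the gene-specific design, read 10.07, 10.14, 10.34, 10.11 and 10.33. Both were lowest in replicate 1 and highest in replicate 3. The third read 8.48, 8.79, 8.52, 8.69 and 9.14, and the fourth read 6.93, 7.43, 7.81, 7.04 and 7.26, the widest range of any member at 1.85-fold (1.42-fold without replicate 3). The fifth lay close to background at 5.78, 5.63, 6.50, 6.24 and 5.75 (limma adjusted p = 0.00556), and the dimmest was not called, at 5.44, 4.70, 4.87, 5.03 and 5.18 (limma adjusted p = 1). Replicate 1 was lowest in 4 of the 6 and replicate 3 highest in 4 of the 6.

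The coactivators were both above background in every replicate. Yap1 read 12.34, 12.15, 12.28, 12.24 and 12.28 in replicates 1 to 5 on its brighter probe set, a mean of 12.26 ± 0.072 (SD, n = 5) and 6.73 log2 units above background (SE 0.067, limma adjusted p = 3.80e-19). Its dimmer probe set read 8.08, 7.44, 7.76, 7.69 and 7.86. Both probe sets were highest in replicate 1 and lowest in replicate 2, with ranges of 1.15-fold and 1.56-fold.

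Wwtr1, the gene of TAZ, read 12.88, 12.86, 13.07, 12.86 and 12.92 on its brightest probe set, a mean of 12.92 ± 0.087 (SD, n = 5) and 7.39 log2 units above background (SE 0.067, limma adjusted p = 1.86e-19). The other 2 probe sets read 8.94, 8.87, 9.10, 8.80 and 9.17, and 8.57, 8.92, 8.91, 8.78 and 9.04. Replicate 3 was highest in the first and replicate 5 in the other 2, and the range was at most 1.39-fold. Yap1 was thus highest in replicate 1, where no Wwtr1 probe set had its highest value, and the difference between the 2 genes was not tested.

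All 4 TEAD genes, whose products carry YAP and TAZ to DNA, were called above background. Tead1 read 11.48, 11.58, 11.69, 11.49 and 11.64 on its brighter probe set (11.58 ± 0.093, SD, n = 5) and 9.88, 10.13, 10.54, 9.95 and 10.06 on the other. Both were lowest in replicate 1 and highest in replicate 3. On the dimmer one the range was 1.58-fold, and 1.18-fold without replicate 3.

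Tead2 and Tead3 had 1 probe set each. Tead2 read 9.80, 9.58, 9.62, 9.54 and 9.70 (9.65 ± 0.10, SD, n = 5), highest in replicate 1 and lowest in replicate 4. Tead3 read 8.51, 8.14, 8.29, 8.34 and 8.19 (8.30 ± 0.14), highest in replicate 1 and lowest in replicate 2. Both ranges were under 1.3-fold.

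Tead4 read 7.04, 7.05, 7.27, 6.84 and 7.09 (7.06 ± 0.15, SD, n = 5), 1.52 log2 units above background (limma adjusted p = 1.73e-08), and 6.63, 6.66, 6.89, 6.51 and 6.48 on its second probe set. Both were highest in replicate 3. Against a background of organ-restricted genes, which lay at 7.05 to 7.78 per array, Tead4 fell below it by 0.27 log2 units (limma adjusted p = 1), while the other 8 genes stayed above.

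**Figure D2:**
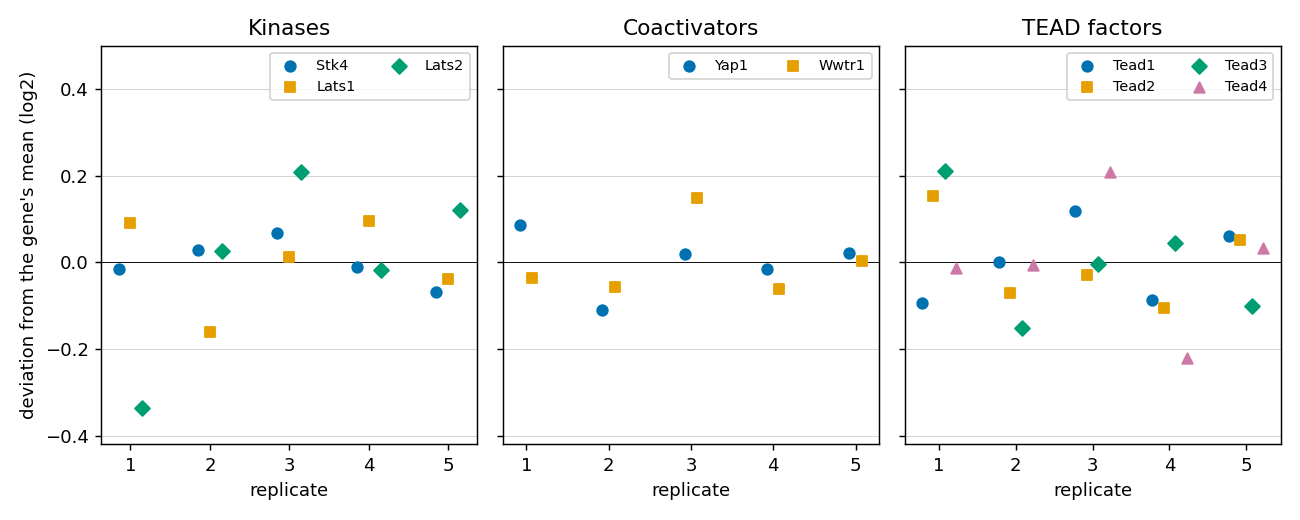
Deviation of each member gene from its own mean over the 5 arrays (vertical axis, log2) in replicates 1 to 5 (horizontal axis), for the probe set of highest mean; symbols stand for genes and are offset sideways for legibility. Lats2 in replicate 1 lies farthest from zero, and Lats2, Wwtr1, Tead1 and Tead4 have their highest value in replicate 3.

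The spread of a probe set was tested as its variance over the arrays against the variance fitted for probe sets of like signal (limma trend, F test with 4 and 4.29 degrees of freedom, one-sided). After Benjamini-Hochberg adjustment, 0 of the 21 called member probe sets passed, with 0 of 21 at an unadjusted p under 0.05 as well; over all 24914 probe sets called above background the shares were 0% and 5.63%. Since no probe set on the arrays passed after adjustment, that outcome is no result about the members and does not show that they did not differ. The smallest unadjusted p was 0.150, for the dimmer Tead1 probe set. The SD lay below the fitted one in 61.9% of the member probe sets and in 50.6% of all. The median fold range between the highest and lowest array was 1.31 for the 22 member probe sets and 1.33 for all called probe sets.

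The replicates did not rank alike across the members. Replicate 3 was highest in 11 of the 22 probe sets and replicate 1 in 7, whereas replicate 2 was highest in none and lowest in 8. Replicate 1 was also lowest in 7. How often each array was highest or lowest over all probe sets was not counted. These counts, and those of the lists below, may therefore follow the arrays as a whole and are descriptions only. By the brightest probe set, Stk4, Lats2, Wwtr1, Tead1 and Tead4 were highest in replicate 3, and Yap1, Tead2 and Tead3 in replicate 1. Control probe sets for the 3′ and 5′ ends of Gapdh and Actb also lay farthest apart in replicate 3 (1.67 against 1.27 to 1.60, and 0.845 against 0.542 to 0.599), and the part of RNA quality in the order was not tested.

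A list score sums this up for each array: how far a list's called genes lie from their means on average, after subtracting the median of all called probe sets. The 9 Hippo genes scored 0.01, −0.05, 0.08, −0.03 and −0.01 in replicates 1 to 5, a range of 1.10-fold. Alveolar type 1 markers (12 of 12 called) had scores of −0.21, 0.12, 0.12, −0.10 and 0.08, with 10 of 12 lowest in replicate 1, the array in which Lats2 and Tead1 were lowest and Yap1 highest. Alveolar type 2 markers (11 of 11 called) had 0.03, −0.02, 0.02, 0.08 and −0.10. Ciliated markers ranged far more widely, at 1.03, 0.33, −0.54, −0.46 and −0.36. The part of these cell types in the order of the members was not tested.

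**Figure D3:**
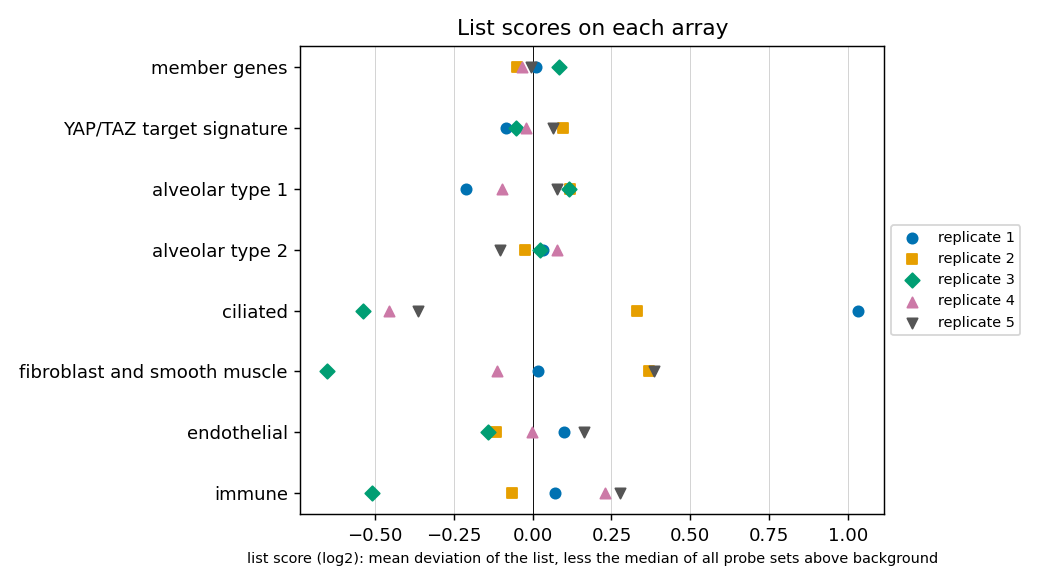
List score of each array (horizontal axis, log2; the mean deviation of a list less the median of all probe sets above background) for the 9 member genes, the YAP/TAZ target signature and 6 marker lists (rows), 1 symbol per replicate. Scores of the member genes lie between −0.05 and 0.08, and those of the ciliated markers between −0.54 and 1.03.

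A list of upstream regulators and scaffolds was measured in full. It also holds genes whose products act on YAP rather than on the kinases, such as Ptpn14. Of 23 upstream regulators and scaffolds, 23 lay above background, as did 74.8% of all genes tested. Sav1, the scaffold that joins the STK and LATS kinases, had 11.00 ± 0.098 (SD, n = 5), and the LATS cofactors Mob1a and Mob1b had 11.61 ± 0.037 and 12.69 ± 0.13. Nf2, which encodes merlin, had 8.94 ± 0.10. Wwc1, which encodes KIBRA, had 13.67 ± 0.079 on a probe set that may bind other transcripts, and 3 of its 4 probe sets were called; its relative Wwc2 had 11.50 ± 0.10.

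By the brightest probe set of each gene, the widest ranges of this list were those of the atypical cadherin gene Fat4, its ligand gene Dchs1, and Ptpn14, a phosphatase gene whose product holds YAP in the cytoplasm. Fat4 read 8.37, 8.38, 7.77, 8.30 and 8.87 in replicates 1 to 5 and Dchs1 7.85, 7.74, 7.29, 7.63 and 8.14. Both were lowest in replicate 3 and highest in replicate 5; the second Fat4 probe set was also lowest in replicate 3 but highest in replicate 2. The scores of 3 marker lists were lowest and highest in these same replicates. They were 0.02, 0.37, −0.65, −0.11 and 0.38 for fibroblast and smooth muscle markers (11 of 12 genes lowest in replicate 3, 7 highest in replicate 5). Immune markers scored 0.07, −0.07, −0.51, 0.23 and 0.28 (9 of 12 lowest in replicate 3, 8 highest in replicate 5). Endothelial markers scored 0.10, −0.12, −0.14, −0.00039 and 0.16 (7 of 12 lowest in replicate 3, 7 highest in replicate 5). The part of these cell types in the order was not tested. Ptpn14 went another way, at 9.98, 10.45, 10.63, 10.07 and 10.42, lowest in replicate 1 and highest in replicate 3, as Lats2 and Tead1 were. None of the 23 passed the spread test, adjusted or unadjusted. No probe set on the arrays passed after adjustment, and 5.63% of all called probe sets did unadjusted.

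Genes of the STRIPAK complex, a phosphatase assembly that dephosphorylates the STK kinases, were above background in 12 of 12 measured cases. Over all genes tested the share was 74.8%. The scaffold and catalytic subunit genes of protein phosphatase 2A, Ppp2r1a and Ppp2ca, had 13.40 ± 0.043 and 12.51 ± 0.050 (SD, n = 5). The striatin genes Strn, Strn3 and Strn4 had 10.93 ± 0.18, 11.51 ± 0.11 and 9.81 ± 0.19. Slmap and Sike1, which link the kinases to the complex, had 12.94 ± 0.083 and 10.90 ± 0.14. No gene of the list passed the spread test at an adjusted p, nor did any probe set on the arrays. None passed at an unadjusted p either, where the share of all called probe sets was 5.63%.

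All 11 genes for 14-3-3 proteins and for the degradation of YAP and TAZ were above background, against 74.8% of all genes tested. Among the widely expressed 14-3-3 genes, Ywhah had 12.46 ± 0.073 (SD, n = 5), Ywhae 14.22 ± 0.046 and Ywhaz 13.48 ± 0.044. Ywhab had 13.49 ± 0.060, Ywhag 12.57 ± 0.095 and Ywhaq 13.29 ± 0.10. Sfn, the epithelial 14-3-3 gene, had 9.17, 9.18, 8.84, 8.99 and 8.47 in replicates 1 to 5, lowest in replicate 5, with a range of 1.64-fold (1.27-fold without replicate 5). Btrc, which encodes the ubiquitin ligase subunit β-TrCP, had 9.04 ± 0.14, and the casein kinase gene Csnk1e 8.85 ± 0.25. Again 0 of 11 passed the spread test, adjusted or unadjusted. Among all called probe sets none passed adjusted and 5.63% unadjusted, so this is no result about the list.

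The vestigial-like genes encode proteins that bind TEAD factors on a surface that overlaps with that used by YAP and TAZ. Of these 4, Vgll3 and Vgll4 were above background and Vgll1 and Vgll2 were not, where 74.8% of all genes tested were. Vgll4 read 11.06, 10.71, 10.64, 10.92 and 10.94 in replicates 1 to 5. Vgll1 read 4.90, 5.65, 5.22, 5.51 and 5.38 and Vgll2 4.42, 4.44, 4.53, 5.28 and 4.86 (limma adjusted p = 1 for both). Vgll3 varied most, at 8.73, 9.45, 8.41, 8.82 and 9.79, a 2.61-fold range with its lowest value in replicate 3 and its highest in replicate 5, as for the scores of the fibroblast and smooth muscle, immune and endothelial markers. Its other 2 probe sets were also highest in replicate 5, and 1 of them was lowest in replicate 3. It had an unadjusted spread p of 0.0234 and, like every probe set on the arrays, did not pass after adjustment (limma trend, adjusted p = 0.836). An unadjusted p under 0.05 was found in 5.63% of all called probe sets.

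Downstream of the members, a signature of YAP and TAZ targets was measured in full. The list comes from human tumours, where Lats2 is also part of it, and it shares Amotl2 and Ptpn14 with the upstream list. All 21 genes lay above background, a call that 74.8% of all genes tested also gave. Ccn1 and Ccn2, matricellular protein genes and the best known YAP targets, read 13.43, 13.45, 13.32, 13.45 and 13.32, and 12.99, 13.17, 13.11, 13.07 and 12.76. On these probe sets both were highest in replicate 2, and the design of this Ccn1 probe set allows binding to other transcripts. The 4 probe sets of Ccn1 disagreed on the order. A second was also highest in replicate 2, while the gene-specific one read 11.878, 11.287, 11.999, 11.758 and 11.362 in replicates 1 to 5 and, like the fourth, was lowest in replicate 2 and highest in replicate 3. Amotl2, an angiomotin family gene, had 11.53 ± 0.10 (SD, n = 5), the receptor tyrosine kinase gene Axl 9.15 ± 0.24 and Crim1 8.27 ± 0.21. Ankrd1, a further classical target with 2 motif matches in the promoter printed above, read 6.43, 6.66, 6.76, 6.78 and 6.82 in replicates 1 to 5 (limma adjusted p = 1.84e-07). This probe set was not called with the 99th percentile as background (limma adjusted p = 0.118) and lay below the background of organ-restricted genes. The other Ankrd1 probe set read 5.16, 5.68, 5.64, 6.41 and 6.84, a 3.21-fold range. It was over background on 4 of the 5 arrays (limma adjusted p = 0.0322).

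**Figure D4:**
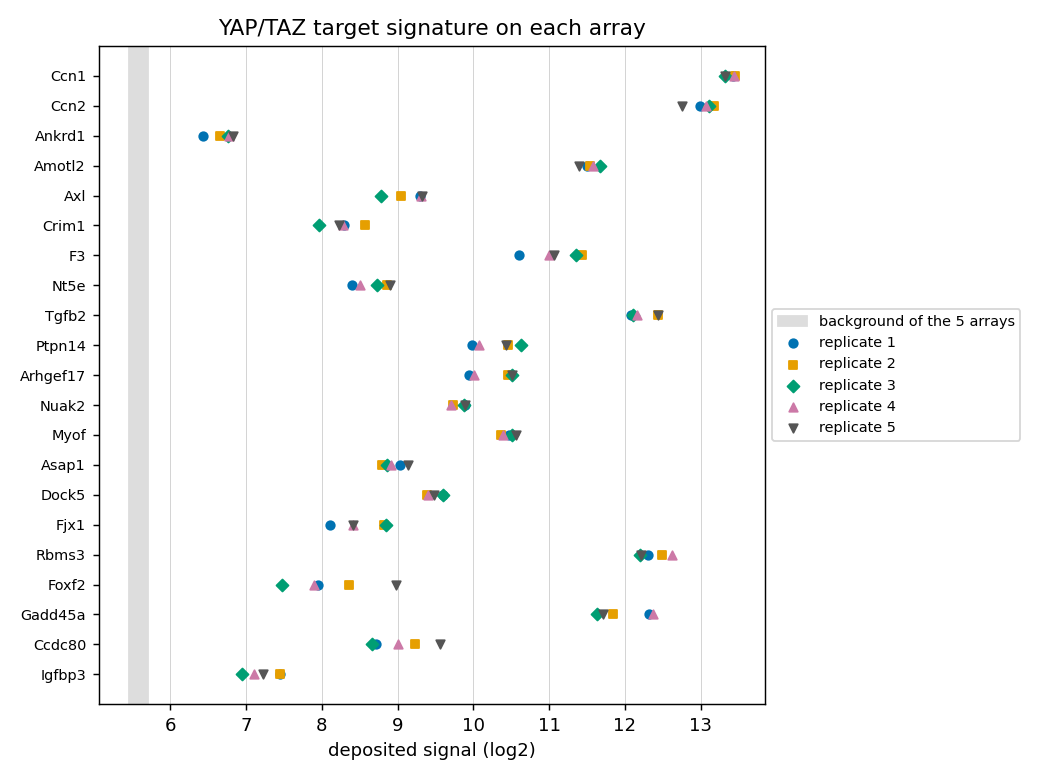
Deposited log2 signal (horizontal axis) of the 21 genes of the YAP/TAZ target signature (rows, probe set of highest mean) on the 5 arrays, 1 symbol per replicate; the grey band spans the 5 array backgrounds. All symbols lie to the right of the band, and the 5 symbols of Foxf2 span 2.84-fold.

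None of the targets passed the spread test after adjustment (limma trend), and no other probe set on the arrays did. The median fold range between arrays was 1.41 for the targets, against 1.19 for the 9 member genes and 1.30 for all called genes, each by its brightest probe set. These are descriptions, and the difference between the lists was not tested. The fold ranges are not adjusted for signal, and the fitted SD was larger at low signal (0.085 for Wwtr1, 0.25 for Tead4). The median distance above background was 4.28 log2 units for the targets and 5.74 for the members. At an unadjusted p under 0.05 there were 3 of 21 (smallest adjusted p = 0.797), against 5.63% of all called probe sets. F3, the tissue factor gene, read 10.60, 11.43, 11.36, 11.00 and 11.07, lowest in replicate 1, as 10 of 12 alveolar type 1 markers were. The part of alveolar type 1 cells in the order of F3 was not tested. Foxf2, a mesenchymal transcription factor gene, read 7.94, 8.36, 7.48, 7.90 and 8.98, a 2.84-fold range (1.84-fold without replicate 5). The third, Gadd45a, a stress response gene chosen after its values were seen, read 12.32, 11.85, 11.63, 12.38 and 11.71.

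Targets did not share one order of replicates either. Replicate 1 was lowest in 7 of the 21 and replicate 3 in 8, and replicate 5 was highest in 8. The shares over all probe sets were not counted here either. Ccdc80, a secreted matrix protein gene, read 8.71, 9.23, 8.66, 9.01 and 9.56, lowest in replicate 3 and highest in replicate 5 like Foxf2. In those replicates the scores were −0.65 and 0.38 for fibroblast and smooth muscle markers, −0.51 and 0.28 for immune markers and −0.14 and 0.16 for endothelial markers, and their part was not tested. The second Ccdc80 probe set was also lowest in replicate 3 but highest in replicate 1, and the second Foxf2 probe set was not called. The score of the target list was −0.08, 0.10, −0.05, −0.02 and 0.07 in replicates 1 to 5, and that of the members 0.01, −0.05, 0.08, −0.03 and −0.01. The 2 lists had their highest scores in different replicates, replicate 2 for the targets and replicate 3 for the members. With 5 arrays, no correlation between them was computed.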

How the data were processed

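Total RNA of sorted cells was labelled with biotin after NuGEN Ovation amplification and measured on Affymetrix arrays (1 colour), per the labels' protocols. The authors deposited 1 value per probe set and array, taken here as log2 signal from its range of 2.46 to 15.24; for log base, software, background correction and normalization, the method is not given in the sources used. Names came from an older platform annotation, in which 34958 of 45101 had 1 symbol, 932 had several and 9211 were unnamed, and the last 2 kinds were left out. Each gene took its value from the probe set with the highest mean. The array background was subtracted and an intercept fitted by lmFit and trended eBayes (limma 3.58.1 under R 4.3.3), and spread was tested against limma's robust trend, with Benjamini-Hochberg adjustment over all probe sets in the fit. Of the 76 receptor genes that set the background, 4 were themselves called in such a fit. The background is a percentile of these same genes, so some lie above it by construction and the count does not measure false calls. Both tests were also run on simulated data with independent noise and the same background on every array. The real backgrounds were estimated and ran from 5.45 to 5.71, so that run does not measure the error of the calls made here. The members, lists and background genes were chosen with earlier results of these data known. Named were all members and, of each pathway list, the first 6 measured genes, those not called (if 8 or fewer), those past the spread test and the 3 of widest range. The 5 samples form 1 group. Alternatives were other backgrounds, normalizations, probe set types, filters and gene summaries, and leaving out each replicate.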

Additional observations from a re-analysis of the deposited data

Results flagged for a closer look

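Among 60 probe sets of members and named pathway genes, 3 had 1 replicate set far apart from the other 4 by Dixon's ratio of gap to range; chance flags about 1 in 20. None of the 22 member probe sets did so. Wwc2 read 11.68 in replicate 3, above the other replicates. Strn read 10.61 in replicate 2, below the others, and Ywhab read 13.59 in replicate 2, above them.

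A probe set listed under both Xpo4 and Lats2, and so left out of the members, also gave a signal above background, with a mean of 6.12 ± 0.20 (SD, n = 5; limma adjusted p = 0.000236). Its signal cannot be assigned to either gene.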

How the results depend on the processing

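The count of Hippo genes above background was 9 of 9 in all settings tried except 2: it was 8 of 9 with organ-restricted genes as background, which Tead4 did not pass (−0.27 log2 units from that background), and 8 of 8 without probe set designs that may bind several transcripts, where Tead3 has none left. Without those types the count of member probe sets above background was 13 of 14, against 21 of 22, since 8 were removed. It was 17 of 22 with organ-restricted genes and 19 of 22 at the 99th percentile. Ankrd1 lay at −0.63 log2 units from the organ-restricted background, where Dchs1 was also not called (limma adjusted p = 0.0688), and Vgll1 lay 0.23 above the 90th percentile without being called (limma adjusted p = 0.0583). The pathway lists together had 67 of 69 genes called, against 74.8% of all genes tested, and between 60 of 63 and 67 under the alternatives. The count past the spread test was 0 under each alternative run. In the main setting no probe set on the arrays passed it, so this count is no result about the members. Leaving out any 1 replicate left the counts at 9 members, 21 probe sets, 67 pathway genes and 0 past the spread test. Other background corrections and slide or scan blocks need scanner files, which were not used here, and were not run. Genes with no probe set left under a filter have no value there. No paired analysis was possible because the 5 samples form 1 group.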
